A study of Mus musculus with 37 samples.

Results

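In each mouse the hippocampus on the injured side of the brain was set against the hippocampus on the opposite side of the same animal, and these side differences were compared between injured and sham mice. The comparison used the 17 mice that had a library from both hippocampi, 34 of the 37 libraries of the series, and 3 injured mice that had only a contralateral library were left out. The side difference of a gene in a mouse is its ipsilateral minus its contralateral value on the scale log2(CPM + 1), where CPM is a gene's counts scaled to a common library size after adjustment by TMM. Each mouse is its own control, so a level that was high or low on both sides of an animal drops out, and so does any shift between the sides that injured and sham mice shared.

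All mice were wild type. The labels name the strain CD31, and the methods name male CD1 mice. The 12 injured mice received a controlled cortical impact (CCI), a piston blow to the exposed cortex of the right hemisphere, and the 5 sham mice received the craniectomy and the later recording electrodes without the impact. Continuous EEG divided the injured mice into 4 with post-traumatic epilepsy (PTE+) and 8 without it (PTE-). Tissue was taken 4 months after injury, and astrocytes were separated with magnetic beads against ACSA-2, an astrocyte surface antigen, so the libraries describe a bead-enriched fraction and not the whole hippocampus.

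Astrocytes surround synapses, capillaries and the lesion itself. They take up glutamate and potassium, convert glucose to lactate, supply neurons with cholesterol in particles of apolipoprotein E, and after injury they can become reactive, with more intermediate filament protein and more complement. A focal blow leaves the other hemisphere as a reference in the same animal, although seizures and inflammation can reach both sides.

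The bead-enriched fraction carried astrocyte transcripts. The summed level of 20 astrocyte markers was between 20120 and 56130 CPM in the libraries of injured mice and between 31050 and 55220 CPM in those of sham mice, and each of the 20 exceeded 3 counts in at least 1 library. Other cells left smaller sums, up to 1970 CPM for 14 microglial markers, 2856 CPM for 12 oligodendrocyte markers, 2108 CPM for 15 neuronal markers and 4115 CPM for 9 endothelial markers. The exceptions were the ipsilateral libraries of PTE- mice a8_11 and a9_12, with 7063 and 5106 CPM over 9 markers of ependymal cells and choroid plexus. In such bulk samples, fewer cells of a type and less RNA per cell cannot be told apart.

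Contralateral libraries held between 32526127 and 55333329 counts and ipsilateral libraries between 36925501 and 59846479. The number of genes with more than 3 counts was between 10788 and 14727 contralaterally and between 7666 and 14847 ipsilaterally. The library with 7666 genes, from the ipsilateral hippocampus of PTE- mouse a8_11, stood apart. It had at most 3 counts for 247 of the 1787 genes whose median was at least 100 CPM, against 0 to 34 such genes in any other library. The side difference in detected genes was between -6800 and 3672 (median 45) in injured mice and between -3793 and 2317 (median 388) in sham mice. Sham mouse a9_9 had the value of -3793 and sham mouse a8_16 the value of 2317, and for the genes named by their p, and for Glul, a value without 1 of these 3 mice is given where its unadjusted p was over 0.05.

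Across the 15445 genes tested, no gene passed an adjusted p of 0.05 (edgeR quasi-likelihood test with mouse as a block, Benjamini-Hochberg adjustment, 0% of genes called). At an unadjusted p under 0.05 the side difference was higher in injured than in sham mice for 52 genes (0.337%) and lower for 88 genes (0.57%). Together they were 0.906% of the genes tested. In data simulated with the spread of these libraries, 2.87% of the unchanged genes reached that threshold, so these counts do not exceed the share seen without a difference. The criteria of the study's methods are an unadjusted p under 0.05, a change of 1.2-fold or more and an average over 5 TPM in a set of libraries. Applied to the edgeR p, they held for 25 genes in the higher direction (0.162%) and 53 in the lower one (0.343%). The study took its p from DESeq2, and with DESeq2 on this comparison the criteria held for 222 genes higher and 223 lower. An exact permutation test of the mice, with 6188 possible assignments, gave p under 0.05 for 165 genes in the higher direction (1.07%) and 242 in the lower one (1.57%), and its smallest adjusted p was 1. DESeq2 on the same design called 88 genes at an adjusted p under 0.05, of which 61 had a median under 1 CPM and 1, Sept4, had a median of at least 10 CPM.

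The direction of the calls depended on the scaling. Values in TPM, tested with limma, gave 343 genes higher and 141 lower at an unadjusted p under 0.05, against 166 higher and 213 lower when limma was applied to CPM. The median side difference of the 9617 genes with a median of at least 10 CPM, injured minus sham, was -0.1 with TMM, -0.04 with RLE size factors and 0.1 in TPM. It was 0.05 without mouse a8_11 and -0.24 without sham mouse a9_9. Small differences of one sign are therefore given beside these medians. In edgeR, 76 genes were higher and 98 lower at an unadjusted p under 0.05 without mouse a8_11, 25 and 79 without sham mouse a9_9, and 51 and 50 without sham mouse a8_16.

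Among the 88 genes in the lower direction, the ipsilateral level was below the contralateral one in injured mice for 86 and in sham mice for 1. Among the 52 genes in the higher direction it was below for 3 in injured and for 51 in sham mice. The 2 sets of mice thus lay on opposite sides of 0 for 85 and 48 of these genes, a count that a selection on the contrast favours and that was not tested. Within injured mice alone, 320 genes (2.07%) had an unadjusted p under 0.05 between the sides and none passed adjustment. Within sham mice alone there were 75 (0.486%), again with none past adjustment in edgeR.

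The gene with the smallest p of all 15445 was Sept4, which encodes septin 4, a GTP-binding protein of the septin cytoskeleton (GRCm38 chromosome 11, 87568903 to 87590539). In injured mice its level averaged 221 CPM contralaterally and 135 CPM ipsilaterally, with SDs of 43.8 and 45.7 (n = 12). In sham mice it averaged 189 and 246 CPM (SD 62.3 and 77.0, n = 5). The ipsilateral hippocampus held less Sept4 than the contralateral one in 11 of 12 injured mice and more in 5 of 5 sham mice.

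The side difference of Sept4 in injured mice had a lowest value of -1.49, a median of -0.75 and a highest value of 0.2. In sham mice it was 0.11 (a8_15), 0.58 (a8_16), 0.11 (a9_10), 0.8 (a9_11) and 0.34 (a9_9). Apart from PTE+ mouse a9_17 at 0.2, every injured mouse lay below every sham mouse. The difference between the means was -1.15 (exact permutation p = 0.000485, where the smallest possible is 0.000162), and the edgeR log2 fold change was -1.16 ± 0.29 (SE, unadjusted p = 0.000821, adjusted p = 1). It was -1.23 among mice with the name prefix a8 and -1.12 among those with a9, between -1.25 and -1.05 when any 1 mouse was left out, and -0.84 in the alternative with the smallest value. DESeq2 gave Sept4 an adjusted p of 0.00378, and no other tool that was run put it under 0.05.

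**Figure D1:**
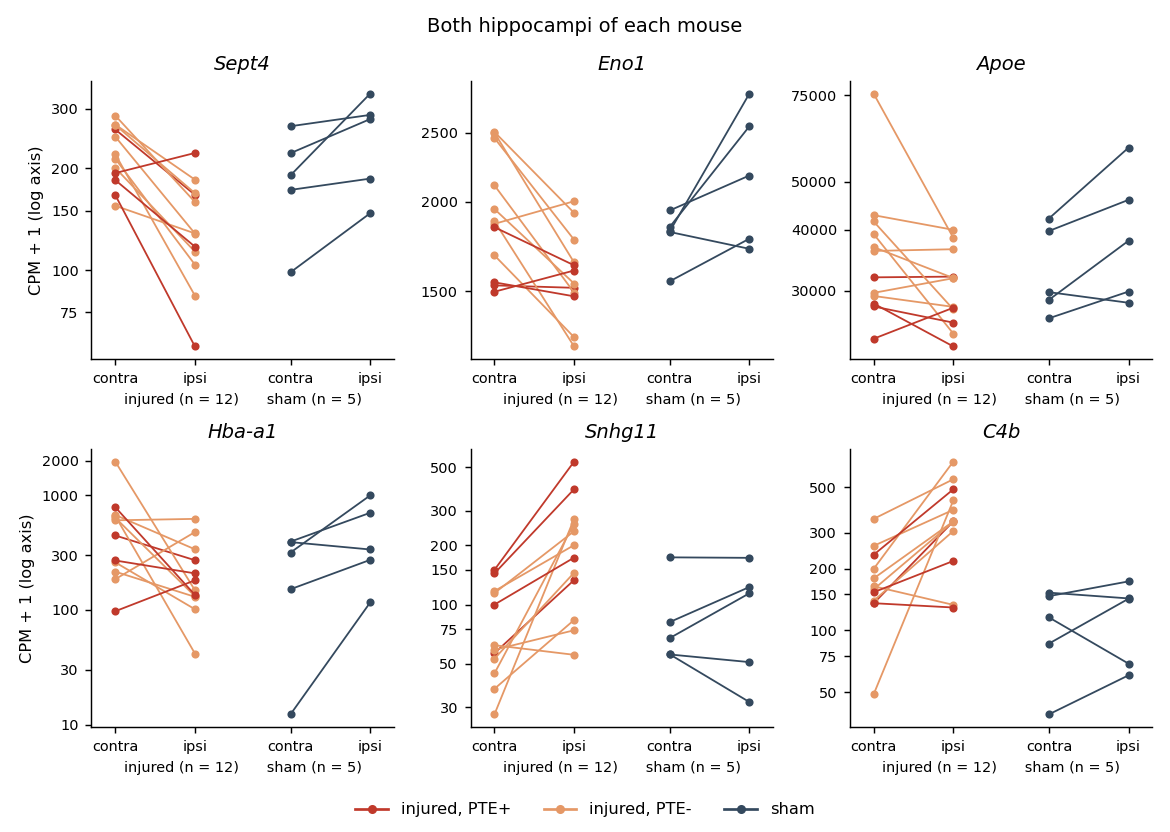
Level of 6 genes in both hippocampi of each mouse, as CPM + 1 on a log axis, with 1 line per mouse from the contralateral to the ipsilateral library and colours for PTE+, PTE- and sham mice. The lines of Sept4 slope down in 11 of 12 injured mice and up in 5 of 5 sham mice, while those of Snhg11 slope up in 11 of 12 injured mice.

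A pair of transcripts of enolase, the glycolytic enzyme that forms phosphoenolpyruvate, came next in order of p among genes with a median of at least 10 CPM. Eno1 (chromosome 4, 150236721 to 150248879) averaged 1946 CPM contralaterally and 1595 CPM ipsilaterally in injured mice, and 1793 and 2210 CPM in sham mice. Its side difference in injured mice had a lowest value of -0.6, a median of -0.36 and a highest value of 0.11. The sham mice had 0.64 (a8_15), 0.16 (a8_16), -0.08 (a9_10), 0.2 (a9_11) and 0.47 (a9_9).

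Of the 12 injured mice, 8 lay below every sham mouse for Eno1, and the remaining ones overlapped the lowest sham values. The 4 PTE+ mice were between -0.18 and 0.1, while 7 of the 8 PTE- mice were between -0.6 and -0.35 and the other was at 0.11. The difference between injured and sham means was -0.55 (exact permutation p = 0.00178), with an edgeR log2 fold change of -0.55 ± 0.15 (SE, unadjusted p = 0.00161). With the PTE- mice alone against sham it was -0.69, and with the PTE+ mice alone -0.3, and the difference between those was not tested. Eno1b gave -0.61 ± 0.16 (unadjusted p = 0.00125 by edgeR). Of the 100-base windows of its longest transcript, 61.8% also occur in Eno1. Many reads of this pair thus cannot be told apart, and the pair counts as 1 observation.

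Apoe (chromosome 7, 19696109 to 19699188), the apolipoprotein of the particles in which astrocytes export cholesterol, was among the most abundant transcripts, with a median of 31860 CPM. Its side difference in injured mice had a lowest value of -0.97 (a8_11), a median of -0.1 and a highest value of 0.21. Sham values were 0.48 (a8_15), 0.21 (a8_16), -0.07 (a9_10), 0.18 (a9_11) and 0.4 (a9_9). The groups overlapped, with 8 of 12 injured mice below all sham mice. The difference of the means was -0.46 (exact permutation p = 0.0141), the edgeR log2 fold change was -0.46 ± 0.15 (unadjusted p = 0.00746), and the change was -0.27 with the PTE+ mice alone.

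The transcripts of haemoglobin, the oxygen carrier of red blood cells, showed the largest side differences among the genes named in the lower direction. Hba-a1, an alpha chain (chromosome 11, 32283511 to 32284465), averaged 567 CPM contralaterally and 232 CPM ipsilaterally in injured mice, with SDs of 498 and 170. In sham mice the averages were 252 and 485 CPM with SDs of 167 and 359. Its side difference in injured mice had a lowest value of -3.99 (a9_15), a median of -0.86 and a highest value of 1.37 (a8_14).

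In sham mice the side difference of Hba-a1 was 0.85 (a8_15), 3.24 (a8_16), 0.84 (a9_10), -0.21 (a9_11) and 1.66 (a9_9). Of the injured mice, 9 lay below all sham mice and 3 were within their range. The difference of the means was -2.47 (exact permutation p = 0.0107), the edgeR log2 fold change was -2.43 ± 0.81 (unadjusted p = 0.00755), and it was between -2.81 and -1.96 when any 1 mouse was left out. Hba-a2 gave -2.47 ± 0.84 and the beta chain Hbb-bs -1.96 ± 0.74, and Hbb-bt, added after its values were seen, gave -2.68 ± 1.16. Between 54.8% and 74.5% of the 100-base windows in the longest transcript of each of these genes recur in its partner, so they are not separate observations.

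The 9 endothelial markers, which mark the vessel wall, are given beside the haemoglobin genes. Their summed level ipsilaterally against contralaterally, on the log2 scale, was between -3.27 and 1.68 in injured mice (median -0.85) and between -0.61 and 0.2 in sham mice (median -0.54). PTE- mouse a9_15 had the lowest value of both Hba-a1 and the endothelial sum. The opposite end differed, since PTE- mouse a8_14, with the highest injured value of Hba-a1 (1.37), had an endothelial value of -1.81. Of the 8 endothelial markers with a median of at least 10 CPM, 7 had a lower side difference in injured than in sham mice, none with an exact permutation p under 0.05. The part of blood or vessels in the haemoglobin values was not tested.

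The remaining genes named in the lower direction were Pmm1, which encodes a phosphomannomutase of mannose metabolism, the ubiquitin ligases Rnf114 and March2, the vesicle protein gene Syt11, and Alas1, the first enzyme of haem synthesis. Pmm1 had an edgeR log2 fold change of -0.93 ± 0.32 (unadjusted p = 0.00943), and 9 of 12 injured mice lay below all sham mice. Its lowest injured value was -2.12 in a8_11. With the PTE- mice alone Pmm1 had -1.16 and with the PTE+ mice alone -0.48, a difference that was not tested. March2 gave -1.04 ± 0.38, Syt11 -0.59 ± 0.22 and Alas1 -1.03 ± 0.39, with 8, 7 and 4 injured mice below all sham mice. Without sham mouse a8_16, March2 had -0.82 (unadjusted p = 0.0579 by edgeR) and Syt11 -0.41 (p = 0.0779), and without sham mouse a9_9 Alas1 had -0.79 (p = 0.0665) and March2 and Syt11 -0.81 and -0.51 (p = 0.0572 and 0.0526). Syt11 had -0.81 with the PTE- mice alone and -0.18 with the PTE+ mice alone, a difference that was not tested.

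For Rnf114 the sham mice made up most of the difference. Its side difference was 0.03 (a8_15), 2.76 (a8_16), 1.0 (a9_10), -0.27 (a9_11) and 3.08 (a9_9) in sham mice, while injured mice had a lowest value of -1.58, a median of -0.18 and a highest value of 0.66. The high sham values came from a8_16 and a9_9, the sham mice whose sides differed most in detected genes. The edgeR log2 fold change was -1.71 ± 0.61 (unadjusted p = 0.011), from -0.38 in injured and 1.33 in sham mice. Without sham mouse a8_16 it was -1.3 (p = 0.0503). The larger part also came from sham mice for Syt11, with edgeR values of -0.14 in injured and 0.46 in sham mice. For the other genes named by their p in the lower direction both parts were of similar size, such as -1.17 and 1.26 for Hba-a1. The exception was Sept4, with -0.77 in injured and 0.39 in sham mice.

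**Figure D2:**
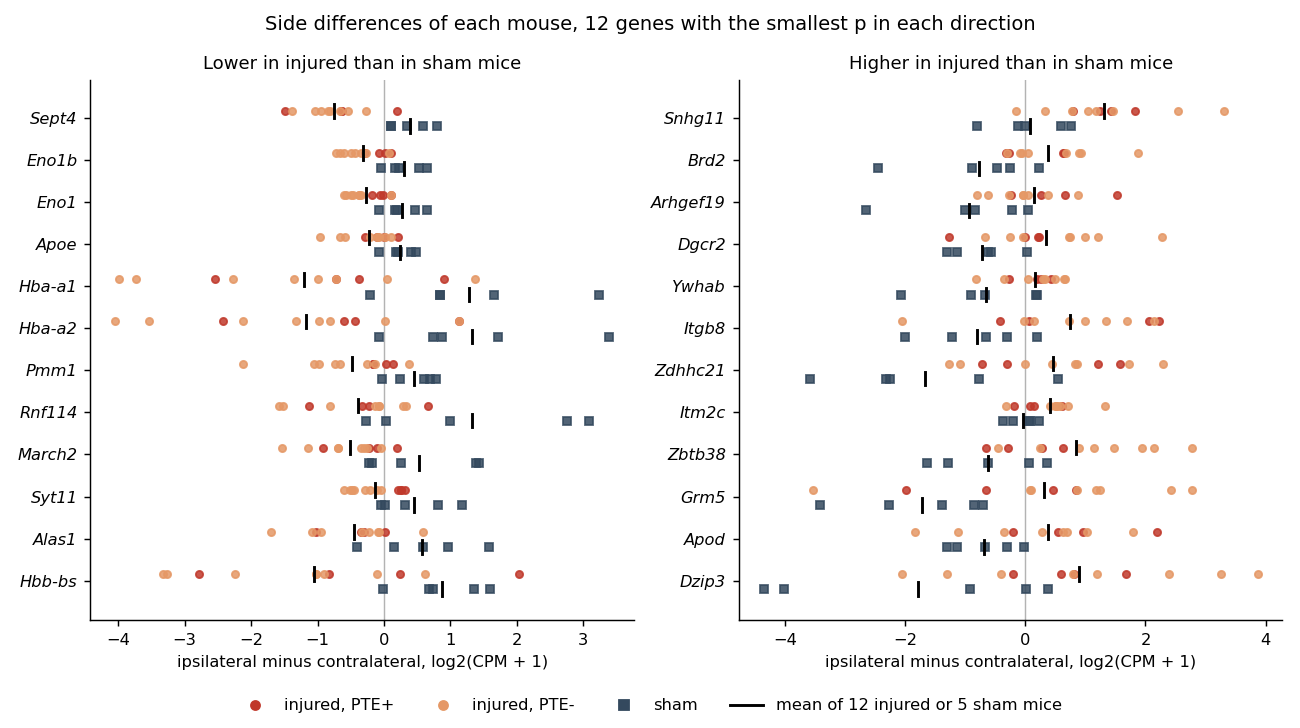
Side difference of each mouse, on the scale log2(CPM + 1), for the 12 genes per direction with the smallest edgeR p among genes with a median of at least 10 CPM, with circles for injured mice, squares for sham mice and black bars for the group means. Sept4 is the gene with the least overlap in the left panel, with 11 of 12 injured mice below every sham mouse, and for Snhg11 in the right panel 10 of 12 injured mice lie above every sham mouse.

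In the higher direction the smallest p among genes with a median of at least 10 CPM belonged to Snhg11, a long noncoding RNA that hosts a small nucleolar RNA (chromosome 2, 158375638 to 158386145). It averaged 79.5 CPM contralaterally and 212 CPM ipsilaterally in injured mice (SD 42.6 and 140, n = 12), and 85.8 and 97.5 CPM in sham mice (SD 49.9 and 57.2, n = 5). The side difference in injured mice had a lowest value of -0.16 (a8_9), a median of 1.2 and a highest value of 3.31 (a8_11). The 5 sham values were 0.76 (a8_15), -0.13 (a8_16), 0.59 (a9_10), -0.01 (a9_11) and -0.81 (a9_9).

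Snhg11 was higher ipsilaterally in 11 of 12 injured mice, 4 of 4 PTE+ mice among them, and in 2 of 5 sham mice. The difference of the means was 1.23 (exact permutation p = 0.0167), and the edgeR log2 fold change was 1.23 ± 0.49 (unadjusted p = 0.021). Within injured mice the change between the sides was 1.31 ± 0.27 (unadjusted p = 0.000116 by edgeR), the smallest p of that comparison, with an adjusted p of 0.909. Without sham mouse a9_9 the difference was 1.0 and its unadjusted p 0.0638 in edgeR.

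Itm2c, which encodes a membrane protein of the BRI family, was also higher ipsilaterally in injured mice, with 1319 CPM contralaterally and 1791 CPM ipsilaterally in injured mice and 1422 and 1386 CPM in sham mice. Its side difference was between -0.33 and 1.33 in injured mice with a median of 0.5. Among sham mice it was -0.21 (a8_15), 0.06 (a8_16), 0.23 (a9_10), 0.07 (a9_11) and -0.37 (a9_9). Of the injured mice, 8 lay above all sham mice, and the difference of the means was 0.45 (exact permutation p = 0.0507). The edgeR log2 fold change was 0.45 ± 0.21 (unadjusted p = 0.0442), from 0.41 in injured and -0.04 in sham mice. Without sham mouse a9_9 it was 0.36 (p = 0.115), and it was 0.56 with the PTE- mice alone and 0.22 with the PTE+ mice alone, a difference that was not tested.

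In the other genes named in the higher direction except Zbtb38, the mean side difference was as far from 0 in sham mice as in injured ones, or farther. Brd2, a chromatin reader, had a log2 fold change of 1.13 ± 0.45, from 0.38 in injured and -0.75 in sham mice. Arhgef19, a guanine nucleotide exchange factor, had 0.14 and -0.92, and Ywhab, a 14-3-3 adaptor, 0.16 and -0.65. Grm5, the metabotropic glutamate receptor mGluR5, had a difference of 2.96 ± 1.4 from 0.54 in injured and -2.42 in sham mice, at a median level of 10.6 CPM. The integrin gene Itgb8, the palmitoyltransferase gene Zdhhc21, Dgcr2, Zbtb38, Apod and Dzip3 had differences between 1.07 and 2.89. Sham mouse a9_9 had the lowest value of the 5 sham mice for Brd2, Arhgef19, Ywhab, Zdhhc21, Zbtb38 and Dzip3. Without it, Brd2 had 0.72 (unadjusted p = 0.0967 by edgeR), Arhgef19 0.65 (p = 0.136), Ywhab 0.46 (p = 0.166), Zdhhc21 1.87 (p = 0.12) and Zbtb38 1.25 (p = 0.117). Without sham mouse a8_16, Grm5 had 2.52 (p = 0.115), Dgcr2 0.92 (p = 0.0919), Apod 0.98 (p = 0.104), Itgb8 1.66 (p = 0.0636) and Dzip3 2.12 (p = 0.149). For several of these genes the unadjusted edgeR p was above 0.05 whether a9_9 or a8_16 was the mouse left out. Ywhab had 0.73 (p = 0.0818), Zdhhc21 2.25 (p = 0.094) and Zbtb38 1.34 (p = 0.107) without a8_16. Grm5 had 2.16 (p = 0.101), Dgcr2 0.96 (p = 0.0813), Apod 1.19 (p = 0.0517) and Dzip3 1.97 (p = 0.131) without a9_9. Dzip3 had p = 0.0515 with all mice and 2.65 (p = 0.0615) without a8_11.

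Gene lists of astrocyte functions are described by the number of members with a higher or lower mean side difference in injured than in sham mice, among members with a median of at least 10 CPM. Over all 9617 such genes the counts were 4286 higher and 5331 lower, and over the 1787 genes with a median of at least 100 CPM they were 502 higher and 1285 lower with a median of -0.21. The lists hold many abundant genes, so the second background is the closer one. Relative to its median, the list medians were -0.14 for glycolysis and lactate, -0.12 for cholesterol and -0.08 for glutamate and GABA. They were -0.07 for radial glia and neurogenic niche and -0.03 for potassium, water and gap junctions. The outer lists were complement at 0.66 and the interferon response at -0.27. In the lists, an unadjusted edgeR p under 0.05 was reached by Eno1, Apoe, Glul and C3ar1 in the lower direction (background 0.57%) and by Grm5 and Sphk1 in the higher one (background 0.337%).

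The glycolysis and lactate list had 19 of 20 members lower in injured than in sham mice, with a median of -0.35. Beside Eno1 the smallest p belonged to Aldoc, the aldolase of astrocytes (-0.65 ± 0.36, unadjusted p = 0.088 by edgeR), and Ldhb, a lactate dehydrogenase subunit (-0.45 ± 0.26, unadjusted p = 0.108). Gapdh stood at -0.2, Tpi1 at -0.04 and Pfkfb3 at 0.59. The median over the 20 members was 0.2 (a8_15), 0.06 (a8_16), 0.06 (a9_10), 0.07 (a9_11) and 0.4 (a9_9) in sham mice, and in injured mice it had a lowest value of -0.97 (a8_11), a median of -0.08 and a highest value of 0.37. Of the injured mice, 8 were below 0 and none of the sham mice was. In TPM 15 of the 20 were lower (median -0.15, or -0.25 relative to all genes), and without sham mouse a9_9 the list's median of -0.27 was 0.03 below that of all genes.

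The cholesterol list, from synthesis to export, had 17 of 20 members lower (median -0.33). As differences of the means, Nsdhl, a sterol dehydrogenase, had -2.5 (-1.76 in edgeR) and Clu, the lipoprotein clusterin, -0.38. The exporter Abca1 stood at 1.0 (0.81 in edgeR). In TPM 14 of 20 were lower, and without mouse a8_11 also 14.

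The glutamate and GABA list had 10 of 16 members lower (median -0.29), and 8 of 16 in TPM. Glul, glutamine synthetase, averaged 1494 CPM contralaterally and 1131 CPM ipsilaterally in injured mice. Its side difference had a lowest value of -1.6 (a8_11), a median of -0.36 and a highest value of 0.22 in injured mice, and it was 0.67 (a8_15), 0.24 (a8_16), -0.43 (a9_10), 0.27 (a9_11) and 0.11 (a9_9) in sham mice. The groups overlapped, with sham mouse a9_10 among the low injured values and sham mouse a9_9 below the highest ones. The edgeR log2 fold change was -0.58 ± 0.26 (unadjusted p = 0.0357), and it was -0.56 (p = 0.0747) without sham mouse a8_16 and -0.6 (p = 0.0594) without sham mouse a9_9. The glutamate transporters Slc1a2 and Slc1a3 had differences of -0.35 and -0.4.

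The list of potassium channels, water channel and gap junction genes had 11 of 12 members lower, with a median of -0.24, but 6 of 12 in TPM and 7 of 12 without a8_11 or without sham mouse a9_9. Aqp4, the water channel of astrocyte endfeet, had -0.4 ± 0.25 (unadjusted p = 0.13 by edgeR). As differences of the means, the potassium channel Kcnj10 stood at -0.52 (-0.27 in edgeR), and the connexins Gjb6 and Gja1 at -0.11 and 0.02. Atp1b2, which carries the ACSA-2 epitope used for the beads, had -0.01 ± 0.31, and its sign changed in several alternatives.

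The radial glia and neurogenic niche list had 12 of 13 members lower (median -0.28), with Ccnd2 at -0.72 and Sox2 at -0.13, and 8 of 13 in TPM. Of the 20 astrocyte markers 17 were lower (median -0.34), and 12 in TPM. The marker list shares Slc1a2, Slc1a3, Glul, Aldoc, Aqp4, Gja1, Gjb6, Slc4a4, Atp1b2 and Hapln1 with the other lists, so these are not separate observations. Immediate early genes had 7 of 10 lower (median -0.47). Dusp1, a phosphatase of MAP kinases, was lower ipsilaterally in 12 of 12 injured mice and 2 of 5 sham mice (log2 fold change -0.77 ± 0.38, unadjusted p = 0.0565 by edgeR).

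**Figure D3:**
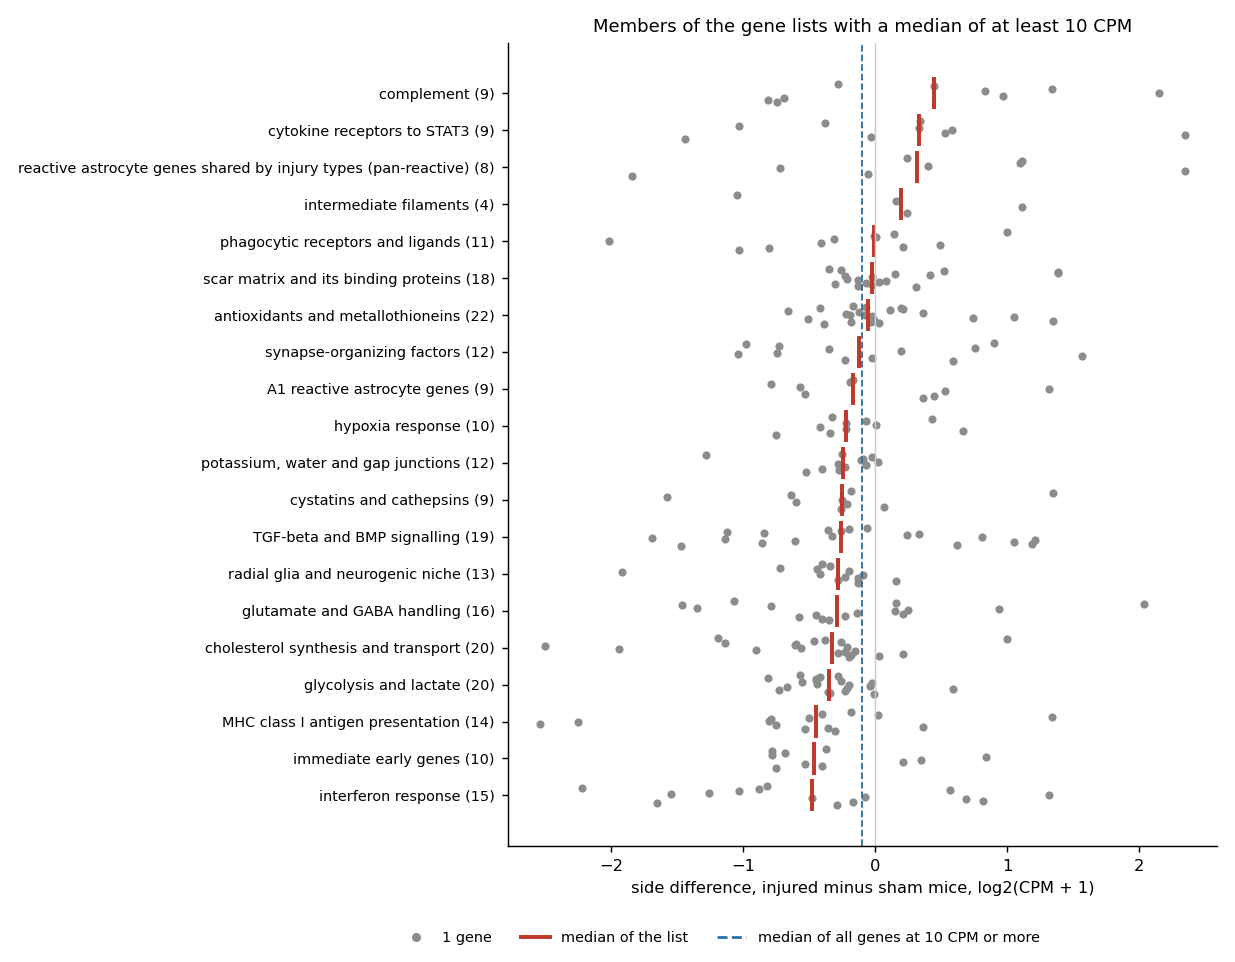
Difference of the side differences, injured minus sham means on the scale log2(CPM + 1), for each member of the gene lists with a median of at least 10 CPM. Grey points are genes, red bars list medians and the dashed line the median of all such genes (-0.1), with complement at 0.45 and the interferon response at -0.48 as the outer list medians.

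Reactive astrocyte genes gave small or variable differences. Gfap, the main intermediate filament protein of astrocytes, averaged 952 CPM contralaterally and 1240 CPM ipsilaterally in injured mice, and 649 and 766 CPM in sham mice. Its side difference in injured mice had a lowest value of -1.11 (a9_17), a median of -0.05 and a highest value of 1.9 (a9_15), and it was -0.66 (a8_15), 0.73 (a8_16), 0.41 (a9_10), -0.11 (a9_11) and 0.08 (a9_9) in sham mice. The injured mice spread on both sides of the sham range, and the log2 fold change was 0.22 ± 0.47 (unadjusted p = 0.645 by edgeR).

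Vim, vimentin, had a log2 fold change of 1.07 ± 0.57 (unadjusted p = 0.0782 by edgeR). Its side difference in injured mice had a lowest value of -0.36, a median of 0.42 and a highest value of 3.42 (a8_11), and in sham mice it was -0.82 (a8_15), -0.41 (a8_16), 1.13 (a9_10), 0.02 (a9_11) and -0.97 (a9_9). The 2 highest injured values, 2.99 and 3.42, were from a9_14 and a8_11, and 4 of 12 injured mice lay above all sham mice. The pan-reactive list, of genes raised in astrocytes by several kinds of injury, had 5 of 8 members higher (median 0.32), or 4 of 8 without sham mouse a9_9. The A1 list, of genes induced by inflammation, had 4 of 9 (median -0.17), or 5 of 9 without a8_11. The intermediate filament list had 3 of 4 (median 0.2), or 2 of 4 without a8_11 or without sham mouse a9_9.

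Lcn2, lipocalin 2, and Timp1, an inhibitor of metalloproteinases, were mostly at or under 3 counts. Lcn2 exceeded 3 counts in 6 ipsilateral and 3 contralateral libraries of the 12 injured mice, with up to 1512 counts, and in 1 of 10 sham libraries. Timp1 exceeded 3 counts in 4 ipsilateral and 2 contralateral libraries of injured mice and in none of 10 sham libraries, which allows up to 3 counts per library. Sphk1, sphingosine kinase 1, which was named after its values were seen, had a side difference above all sham mice in 10 of 12 injured mice, between -2.69 and 5.85 with a median of 3.33. Sham mice had -0.3 (a8_15), -0.35 (a8_16), -0.07 (a9_10), -0.15 (a9_11) and -0.22 (a9_9). Its exact permutation p was 0.0409, while 5 contralateral and 2 ipsilateral libraries of injured mice were at or under 3 counts. So were 1 contralateral and 2 ipsilateral libraries of sham mice, whose means were 3.87 and 3.32 CPM (SD 7.97 and 7.2). Over all libraries the median of Sphk1 was 0.342 CPM, so the pseudocount holds many of its side differences near 0. The difference of the means was 1.38 among mice with the prefix a8 and 3.11 among those with a9.

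The complement list had 5 of 9 members higher with a median of 0.45. Taken by mouse, the median over the members was centred at 0.25 in injured and 0.24 in sham mice. The highest injured values were 4.83 in a9_14 and 2.58 in a9_16, the mice with the highest side differences of the summed microglial markers (4.45 and 3.6). The part of microglia in these values was not tested. C4b, the complement component C4, averaged 179 CPM contralaterally and 360 CPM ipsilaterally in injured mice (SD 75.4 and 160), and 107 and 117 CPM in sham mice (SD 47.0 and 50.2). Its side difference in injured mice had a lowest value of -0.3 (a8_14), a median of 0.99 and a highest value of 3.14 (a9_15), and in sham mice it was -0.75 (a8_15), 0.24 (a8_16), -0.09 (a9_10), 0.73 (a9_11) and 0.63 (a9_9). The groups overlapped, with 7 of 12 injured mice above all sham mice. Within injured mice the ipsilateral level differed by 0.97 (unadjusted p = 0.000793 by edgeR), and against sham the log2 fold change was 0.81 ± 0.44 (unadjusted p = 0.081).

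C3, the central complement component, varied more, with side differences between -3.37 and 6.45 in injured mice and -4.19 and 5.24 in sham mice (log2 fold change 3.05 ± 2.79). The microglial complement genes C1qa, C1qb and C1qc had differences between -0.81 and -0.69. C3ar1, a complement receptor of myeloid cells named after its values were seen, was at or under 3 counts in 12 of 12 ipsilateral and 6 of 12 contralateral libraries of injured mice, with up to 2047 counts contralaterally. In sham mice it was at or under 3 counts in 5 of 5 contralateral and 4 of 5 ipsilateral libraries. F13a1, a marker of macrophages that was also named afterwards, was at or under 3 counts in 10 of 12 ipsilateral libraries of injured mice and in 0 of 5 of sham mice, which held between 68 and 269 counts. Contralaterally it was at or under 3 counts in 6 of 12 injured and 3 of 5 sham mice. Its exact permutation p was 0.0249.

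The MHC class I list had 11 of 14 members lower (median -0.45) and the interferon list 11 of 15 (median -0.48). The largest differences in them, Tap1 at -2.54 and Ifnar1 at -2.22, had exact permutation p of 0.0874 and 0.12, and the heavy chain H2-D1, the most abundant member, had -0.53 (p = 0.237). In TPM the interferon list also had 11 lower members of 15, with a median of -0.03, and without a8_11 it had 9. Cxcl10, a chemokine of that response, had a side difference in injured mice with a lowest value of -3.67, a median of 0.06 and a highest value of 6.9. In sham mice it was -1.69 (a8_15), -3.57 (a8_16), -1.7 (a9_10), -0.06 (a9_11) and -3.85 (a9_9), so it was lower ipsilaterally in 5 of 5 sham mice and 7 of 12 injured mice lay above them. The difference of the means was 3.29 (exact permutation p = 0.0365), while edgeR gave a p of 0.201.

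Receptors from cytokines to STAT3 had 5 of 9 members higher, with a median of 0.33 that lay 0.43 above that of all genes, and Jak1 had 0.58 ± 0.4. The TGF-beta and BMP list had 12 of 19 lower (median -0.26). Smad4, with a difference of the means of -1.69 (-1.24 in edgeR), depended on sham mouse a8_16 with a value of 6.33. Scar matrix genes had 10 of 18 lower, phagocytic genes 6 of 11, synapse-organizing factors 7 of 12, antioxidants and metallothioneins 14 of 22, and the hypoxia list 7 of 10, with medians between -0.22 and -0.01, and each of these 5 lists had at most as many lower as higher members in TPM. Of the A2 genes 2 had a median of at least 10 CPM, Ptx3 at -1.23 and Tm4sf1 at 0.83.

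The list of cystatins and cathepsins had 7 of 9 lower (median -0.25), but 4 of 9 in TPM. Cst3, cystatin C, an inhibitor of cathepsins, had a side difference in injured mice with a lowest value of -1.18 (a8_11), a median of -0.2 and a highest value of 0.07, below 0 in 11 of 12. In sham mice it was 0.34 (a8_15), -0.43 (a8_16), -0.28 (a9_10), -0.11 (a9_11) and 0.13 (a9_9). The groups overlapped widely. Within injured mice Cst3 differed by -0.33 between the sides (unadjusted p = 0.00236 by edgeR), and against sham the log2 fold change was -0.26 ± 0.17 (unadjusted p = 0.151).

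Markers of other cells differed more between the mice than the astrocyte genes did. Of 10 microglial markers 9 were lower in injured than in sham mice (median -1.35), of 5 oligodendrocyte markers all 5 (median -0.83), or 4 in TPM, and of 11 neuronal markers 2 (median 1.02). The mural and fibroblast list had 8 of 10 higher (median 1.08) and the ependymal and choroid list 5 of 5 (median 1.34), or 3 of 5 without a8_11. Of 8 oligodendrocyte precursor markers 5 were lower, but 3 with RLE size factors, Lyz2 was the only infiltrating macrophage marker at 10 CPM (-2.0), and none of the T cell markers reached that level. By mouse, the summed microglial markers had side differences between -3.53 and 4.45 in injured and between -0.48 and 1.52 in sham mice, on the log2 scale. The summed neuronal markers were between -1.61 and 2.14 in injured mice (median 0.09) and between -1.8 and 1.1 in sham mice (median 0.12). None of the 15 neuronal markers had an unadjusted edgeR p under 0.05.

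The summed ependymal and choroid markers were 4.07 higher ipsilaterally in PTE- mouse a9_12 and 3.85 in a8_11, against -0.87 to 1.18 in sham mice. In the same mice the summed astrocyte markers were at -0.75 and -1.48, the lowest values of the 17 mice, and the values of Apoe were -0.67 and -0.97. The part of other cells in the side differences of astrocyte genes was not tested.

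**Figure D4:**
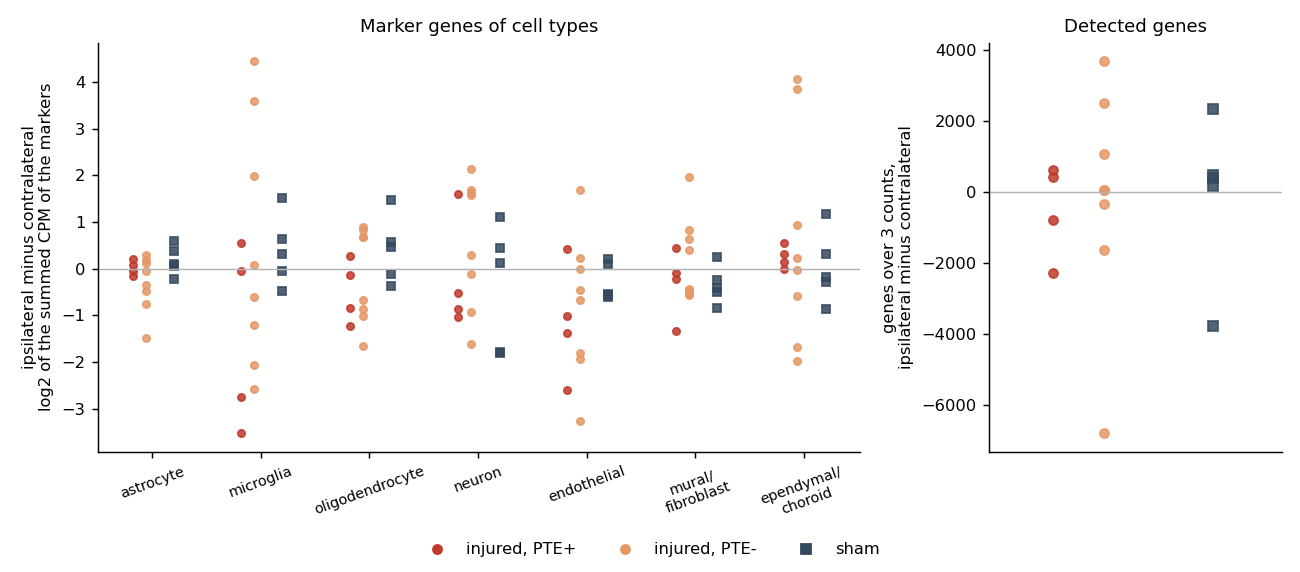
Left, side difference of the summed CPM of the markers of 7 cell types in each mouse, on the log2 scale, and right, side difference in the number of genes with more than 3 counts. The astrocyte sums lie between -1.48 and 0.59 and the microglial sums between -3.53 and 4.45, and 1 PTE- mouse stands at -6800 genes.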

How the data were processed

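Bead-isolated hippocampal astrocytes were sequenced after amplification with a low-input SMART-Seq kit. Per the submitters' processing notes, the authors trimmed reads with Trim Galore 0.6.4 and quantified genes with RSEM 1.2.28 and Bowtie2 2.4.1 on mm10, and the annotation release is not given in the sources used here. The deposited expected counts had been rounded to whole numbers, and the authors' TPM values were deposited beside them. Contralateral and ipsilateral libraries were deposited in separate tables, so side and table coincide. Coordinates were taken from the GRCm38 annotation.

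The expected counts of the 34 libraries were scaled by TMM (factors 0.7658 to 1.14), which could move small differences of 1 sign, and filtered with filterByExpr, leaving 15445 of 21975 genes. The edgeR 4.0.16 quasi-likelihood model (R 4.3.3) held 1 term per mouse and a side effect for injured and for sham mice, and their difference was tested on 15 residual degrees of freedom, with a common biological coefficient of variation of 1.29. Mean side differences on log2(CPM + 1), with a pseudocount of 1, were tested by two-sided exact permutation of the mice, adjusted over all genes tested instead of over the named genes as planned. DESeq2 1.42.0 and limma 3.58.1 were alternatives. On data simulated for injured against sham mice with the spread of these libraries, 1.5% of 200 genes changed 4-fold were recovered over 15383 genes with 0 false calls, and 79.5% at a coefficient of 0.4 over 15373 genes with 8 false calls.

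The pairing comes from mouse names, which mark the same animal. The deviations of both libraries of a mouse had a median correlation of 0.0822, with 7 of 17 above 0.1. Between different mice the median was 0.00658, with 29 of 152 pairs above 0.1. The ranges overlapped, -0.129 to 0.363 within a mouse and -0.234 to 0.342 between mice. No 2 libraries were identical. Counts per library, between 32526127 and 59846479, limit precision less than the spread between mice, and intervals of counting cover counting error only, since reads carried no molecular identifiers. Genes were named if they passed an adjusted p of 0.05 (none did), were among the 12 per direction with the smallest edgeR p at a median of at least 10 CPM, were among up to 3 such members of a gene list, or were Gfap, Vim, Lcn2, Timp1, Cxcl10, Cst3 or Atp1b2. Hbb-bt, Sphk1, C3ar1 and F13a1, and list members outside the rule given by value alone, were chosen after their values were seen. The comparison, its members and the gene lists were chosen with earlier results of these data known. Some members of the lists are not reported here by name.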

Additional observations from a re-analysis of the deposited data

Results flagged for a closer look

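Within a group of 4 to 10 mice, a side difference was flagged where 1 mouse stood far from the others by Dixon's criterion, which chance meets in about 1 in 20 groups. Of 291 groups of values tested, 21 were flagged. All values are ipsilateral minus contralateral on the scale log2(CPM + 1).

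Among the PTE+ mice, a8_10 stood apart for Dgcr2 at -1.27, Dusp1 at -1.68 and Stat2 at -4.75. Mouse a9_19 did so for Ctsz at -1.14 and Slc12a2 at 1.12, a9_18 for Tap1 at -5.13 and a9_17 for Timp1 at 0.9. Among the PTE- mice, Eno1 stood at 0.11 in a9_13, above the other 7 mice. Mouse a8_9 stood apart for C3ar1 at -5.33 and Grm5 at -3.53, a9_15 for Ifi27 at -2.0, a9_14 for Psme1 at 6.05 and a8_11 for Slc12a2 at -4.79.

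Among the 5 sham mice, a9_9 was flagged 4 times, for Ctsd at 0.93, Gpc4 at -3.81, Osmr at -3.93 and Serping1 at 2.81. Mouse a8_16 stood apart for S1pr3 at 6.01 and Smad4 at 6.33, a8_15 for C3ar1 at 0.81 and a9_10 for Lcn2 at -2.52. The cause of these values was not tested.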

How the results depend on the processing

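No gene passed an adjusted p of 0.05 in edgeR, voom or limma under any alternative, and DESeq2 called 88 between injured and sham mice, 331 within injured and 61 within sham mice; the cause was not tested. At an unadjusted p under 0.05, against 140 genes, there were 803 with DESeq2, 49 with a median of at least 10 CPM (fewer genes tested), 789 with voom and quality weights, 379 and 440 with limma on CPM at pseudocounts of 1 and 5, 484 with limma on TPM, and 225 with detected genes as a covariate beside the block. Without the replicate block, which tests the same comparison without pairing by mouse, there were 299, and 243 against 75 within sham mice. DESeq2 gave 1474 within injured and 576 within sham mice. By the criteria of the methods, against 78 genes, there were 445 with DESeq2, 49 with the median of at least 10 CPM, 427 with voom, 308, 396 and 411 with limma on CPM at both pseudocounts and on TPM, 129 with the covariate, 71 without the block, and 148 with the PTE+ and sham mice alone. Leaving out 1 mouse gave 101 (without sham a8_16) to 174 (without a8_11) genes at p, and 38 (without sham a9_9) to 116 (without a8_11) by the criteria, with 45 without sham a8_16.

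Fold changes of these named genes turned sign. With voom, S1pr3 had 0.36, Ptx3 0.74, Slc12a2 0.11, Slc4a4 0.21, Tap1 0.18, Megf10 0.14 and Atp1b2 0.26. With the PTE+ and sham mice alone, Gfap had -0.3, Id2 0.01, Mfge8 0.0, Slc1a3 0.0, Jun 0.01 and Atp1b2 0.03. Atp1b2 also had 0.06 with RLE size factors (0.05 by mouse), 0.03 with the median filter, 0.06 with DESeq2 and 0.21 in TPM. Among mice with the prefix a8, Gfap had -0.2, Lcn2 -0.42, Timp1 -0.63 and Atp1b2 0.44, and among those with a9 Slc12a2 had 0.22. Leaving out 1 mouse, Slc4a4 lay between -0.44 and 0.11 (-0.45 to 0.12 by mouse) and Atp1b2 between -0.19 and 0.26 (-0.19 to 0.27 by mouse). The cause was not tested. Of the genes named by their p, 12 in the lower and 11 in the higher direction had an unadjusted edgeR p under 0.05, and leaving out some 1 mouse took 4 of the 12 (Alas1, March2, Rnf114 and Syt11) and 11 of the 11 past it. By the exact permutation test of the mice, leaving out 1 mouse took 48 values of named genes past an unadjusted p of 0.05 and brought 30 under it.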
